A study of Arabidopsis thaliana with 4 samples.

Results

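The regions described here are peaks of LEC1-FLAG that lay beside 1 gene end only, with open sequence on the other side. LEC1 is the NF-YB subunit, made mainly in embryos, that acts as a central regulator of seed development. Chromatin of developing Arabidopsis thaliana seeds was precipitated with an antibody against FLAG from lec1-4 plants that carried LEC1-FLAG driven by the LEC1 promoter (pLEC1:LEC1-FLAG). Input chromatin from the same genotype served as the reference, so the lec1-4 background, the transgene, the tissue and the growth conditions (22°C, 16 h of light and 8 h of dark) were common to all samples. There were 2 ChIP and 2 input samples, called biological replicates by the submitters, and each ChIP library had 1 deposited list of peaks called over its own input. The seeds are labelled as mature stage, but embryo expansion is what the title of the series names. The samples lack a FLAG precipitation of untagged plants, so antibody background at a single peak was not separated from LEC1-FLAG signal. The LEC1 promoter limits the tagged protein to the cells in which that promoter is active, and whole developing seeds were sampled.

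A replicate 1 peak on 1 of the 5 nuclear chromosomes counted as shared where it overlapped a replicate 2 peak by at least 50% of the shorter one. A shared peak was a one-end peak where its highest summit lay outside every protein-coding gene, within 1000 bp of a gene on one side and more than 1000 bp from the next gene on the other. Of 13894 replicate 1 peaks, 3125 were shared (22.5%), and 886 of these were one-end peaks (28.4% of the shared peaks, 95% Wilson interval 26.8 to 30.0). They had 868 different near genes. Before the sharing rule was applied, 3027 replicate 1 peaks were at 1 gene end only, of which the 886 (29.3%) had a partner in replicate 2. Among the 3361 peaks of replicate 2, 1004 were at 1 gene end only by their own summits, and 930 of these had a partner in replicate 1. The gene table used gives no strand, so a gene end here is the outer border of the annotated gene on either side, and starts were not separated from ends.

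NF-Y factors are trimers in which an NF-YB and an NF-YC subunit form a histone-like pair and an NF-YA subunit reads the CCAAT element, which is common in promoters shortly before the transcription start. In seeds, LEC1 acts with the B3 factors ABI3, FUS3 and LEC2 and with bZIP factors of abscisic acid signalling on genes for storage proteins, oil bodies and desiccation tolerance. Abscisic acid is perceived by PYR/PYL receptors, which inhibit clade A PP2C phosphatases and so free SnRK2 kinases to activate group A bZIP factors. A peak between a gene and a long stretch without genes can be paired with its nearest gene with less ambiguity than a peak between close neighbours. The definition asks only for more than 1000 bp on the open side, so the next gene can be nearly as close. Of the peaks named below, that at PLPB lay 837 bp from it and 1026 bp from the next gene. At PYL13 these distances were 882 and 1042 bp, and at CRU2 991 and 1216 bp. The near gene of such peaks is uncertain.

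Replicate 1 was called from 4454133 ChIP tags and 7578894 input tags, and replicate 2 from 4493099 ChIP tags and 9646586 input tags. The authors extended tags to 187 bp in replicate 1 and to 149 bp in replicate 2, so pileups and folds of the lists come from separate calls. Fold means the authors' fold enrichment, the pileup of extended ChIP tags at the summit over the local background of the call, each with 1 added. The background is taken from the input, but its lowest value recurred at many one-end peaks. This value, 7.96 in replicate 1 and 6.59 in replicate 2 with the added 1, acted there as a floor and not as a local input value. Intervals printed beside folds are 95% exact Poisson intervals of the pileup and cover its counting error only. With 1 list for each of 2 replicates and no other condition there was no test between conditions, and the values below are descriptions.

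One-end peaks were dense for the sequence that could hold them. The stretch outside genes, within 1000 bp of 1 gene end and more than 1000 bp from the next gene, made up 17.1 Mb (14.3% of the 119 Mb between the first and the last gene of each chromosome). It held 51.9 shared peaks per Mb. Sequence within 1000 bp of gene ends on both sides held 73.6 per Mb (533 peaks), gene interiors held 18.2 per Mb (1172 peaks) and sequence farther than 1000 bp from genes held 17.6 per Mb (534 peaks). The density of one-end peaks was thus lower than between close gene ends and higher than in the other parts of the genome. Over the chromosomes the share of shared peaks that were one-end peaks ran between 27.1% on chromosome 3 and 30.1% on chromosome 4, and the intervals overlapped.

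The summits lay close to the gene. The median distance to the near gene end was 315 bp (middle 50%, 120 to 620.5 bp), within limits of 1000 bp that the definition sets, and the next gene on the open side began at a median of 2316.5 bp. Within 200 bp of the gene end were 347 summits (39.2%). Per Mb of eligible sequence, 90.7 shared peaks lay at 1 to 100 bp, 75.3 at 101 to 200 bp and 43.9 at 201 to 300 bp, and the bins from 301 to 1000 bp ranged between 32.6 and 51.3. The density was thus highest in the first 200 bp, and the bins beyond 300 bp lay on both sides of the value at 201 to 300 bp. Both lists showed this on their own. All replicate 1 peaks at 1 gene end had 326 per Mb at 1 to 100 bp and 147 per Mb at 201 to 300 bp, and all replicate 2 peaks had 100.03 and 54.4 per Mb in the same bins. The near gene was on the left of the peak in 450 cases and on the right in 436.

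**Figure D1:**
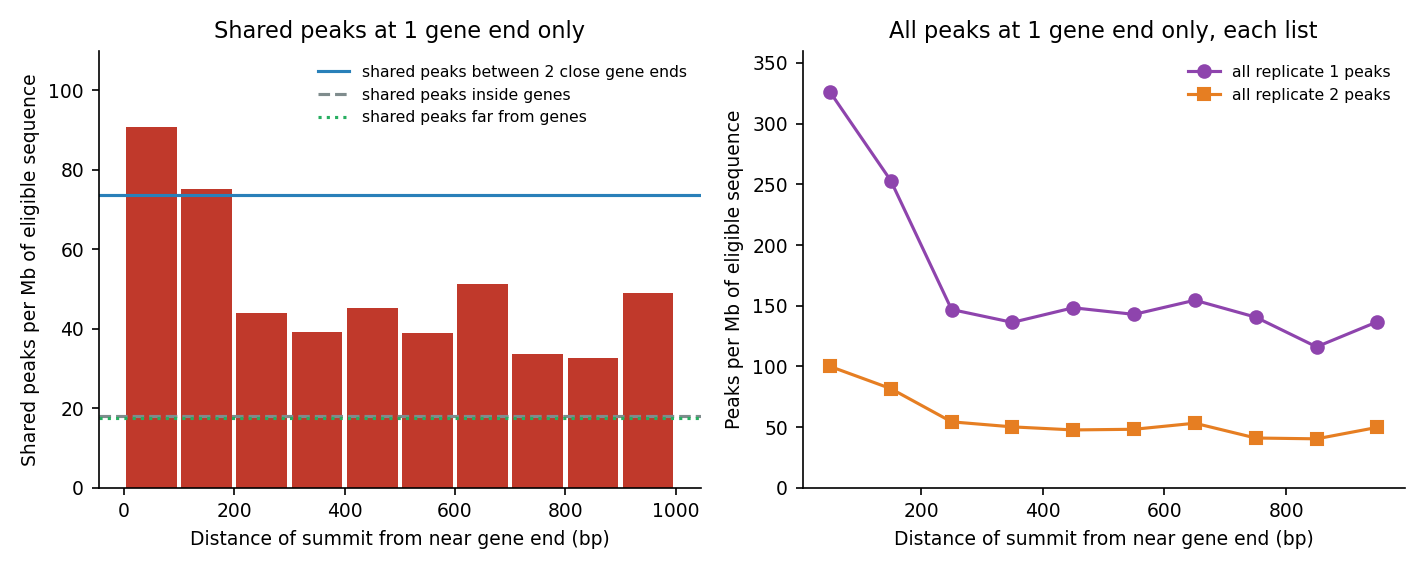
Shared peaks per Mb of sequence that can hold them (left, bars) by distance of the summit from the near gene end in bins of 100 bp, with lines for shared peaks between close gene ends, inside genes and far from genes, and the same density for all one-end peaks of each replicate list (right). The first bar stands at 90.7 per Mb and the bars beyond 200 bp stand between 32.6 and 51.3, while gene interiors held 18.2 per Mb.

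Fold did not follow distance. The median fold of one-end peaks at 1 to 200 bp was 8.16 in replicate 1 and 3.33 in replicate 2, and at 801 to 1000 bp it was 8.78 and 3.47. Spearman's rho between distance and fold over the 886 peaks was -0.000986 in replicate 1 and 0.0411 in replicate 2, as a description over peaks that share their libraries. Peaks at 1 to 200 bp were longer, with a median length of 559 bp in replicate 1 against 458 bp at 801 to 1000 bp. The share of replicate 1 peaks with a partner was 28.6% at 1 to 200 bp (95% Wilson interval 26.2 to 31.2) and 32.2% at 801 to 1000 bp (27.5 to 37.3), and these intervals overlapped.

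Most gaps between genes that were long enough for such a peak did not hold one. There were 11074 gaps of over 1000 bp beside a protein-coding gene, and 845 of them (7.63%) held a one-end peak. Of the 27444 nuclear protein-coding genes, 868 were near genes (3.16%), and they were 5.19% of the 16727 genes next to such a gap. The share of gaps with a one-end peak was 5.34% of 4536 gaps of 1001 to 2000 bp (4.72 to 6.03), 10.2% of 2252 gaps of 2001 to 3000 bp (9.03 to 11.5) and 4.40% of 704 gaps over 10000 bp (3.12 to 6.18). The share was thus highest in gaps of middle length, where 3001 to 5000 bp and 5001 to 10000 bp also gave 9.54% and 9.56%. The shortest gaps have less sequence that meets the definition. In 32 gaps both flanking genes had a one-end peak.

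The signal of one-end peaks was close to that of the other shared peaks. The median pileup was 74 in replicate 1 and 25 in replicate 2. The median fold was 8.10 in replicate 1 (middle 50%, 5.64 to 11.3) and 3.35 in replicate 2 (2.84 to 4.25). Shared peaks between close gene ends had medians of 8.68 and 3.55, those inside genes 8.59 and 3.35, and those far from genes 8.21 and 3.46, so the medians of the classes lay within the middle 50% of the one-end peaks in both lists. One-end peaks were shorter in replicate 1, at a median of 492.5 bp, than peaks between close gene ends (605 bp) or inside genes (621.5 bp). They were longer there than peaks far from genes (433 bp). In replicate 2 the medians were 287.5 bp for one-end peaks, 301 bp between close gene ends, 267.5 bp inside genes and 289 bp far from genes. Several summits were called in 143 one-end peaks of replicate 1 (16.1%), against 21.1% of the shared peaks inside genes and 9.93% of those far from genes.

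Replicate 2 was weaker at nearly every one-end peak. The median ratio of replicate 2 to replicate 1 fold was 0.430 (middle 50%, 0.343 to 0.564), and replicate 2 had the higher fold at 25 of the 886 peaks (2.82%). The median local background was 8.80 in replicate 1 and 7.52 in replicate 2. The part of the different tag extensions in the lower fold was not tested. The order of strength was partly kept, with a Spearman rho of 0.57 between the folds over the 886 peaks, which is a description across regions of the same 2 libraries. Of the 89 one-end peaks with the highest fold in each list, 54 were in both. Summit positions of the 2 lists were a median of 36 bp apart, 545 pairs (61.5%) were within 50 bp, and 31 pairs (3.50%) were over 200 bp apart. The replicate 2 summit was nearer to the gene in 432 pairs and farther from it in 450. In 828 pairs (93.5%) the replicate 2 summit also met the one-end definition.

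**Figure D2:**
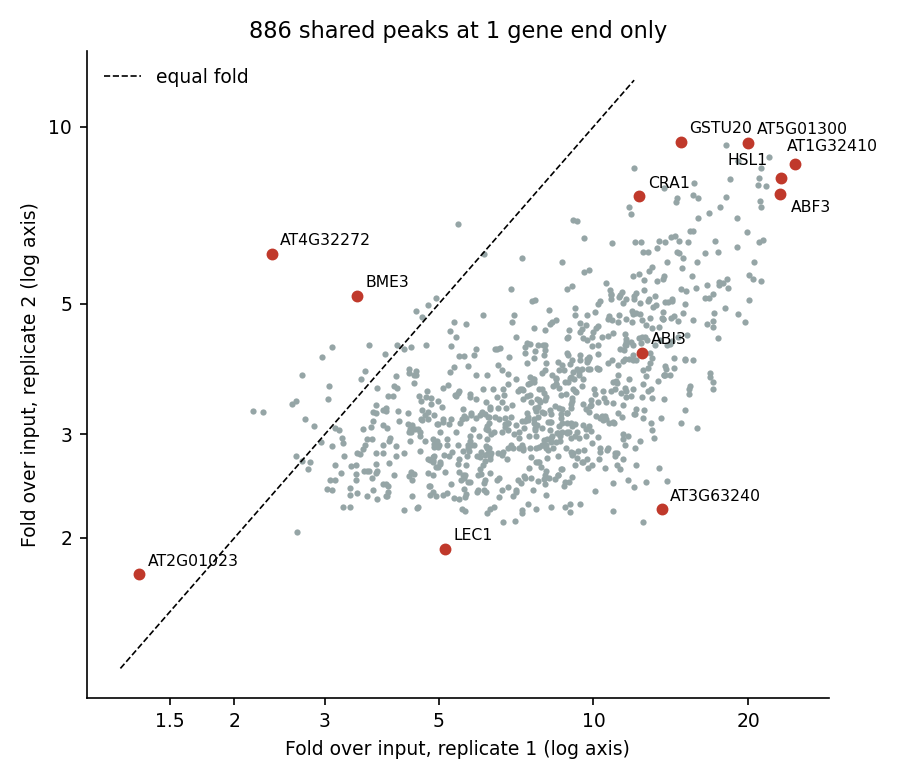
Fold over input of the 886 one-end shared peaks in replicate 1 (x axis, log scale) and replicate 2 (y axis, log scale), each point a peak, with the dashed line at equal fold and named peaks in red. Of the points, 25 lie above the line, and the highest replicate 1 fold is that of AT1G32410 at 24.7.

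Strong one-end peaks were nearly always found again, and weak ones seldom. Of the 185 replicate 1 one-end peaks with a fold of 12 or more, 184 had a partner in replicate 2 (99.5%, 95% Wilson interval 97.0 to 99.9). At a fold of 4 to 6, 167 of 764 had one (21.9%, 19.1 to 24.9), and under 3, 16 of 585 (2.74%, 1.69 to 4.40). Within the same bin of fold, one-end peaks had a partner more often than peaks inside genes in several bins. The intervals of these 2 classes overlapped at a fold of 6 to 8 and at 12 or more. At a fold of 8 to 12 the share was 83.1% (78.7 to 86.8) for one-end peaks and 74.7% (70.9 to 78.2) inside genes, and at 4 to 6 it was 21.9% and 13.2% (11.5 to 15.0). Far from genes the share at 4 to 6 was 22.4% (18.8 to 26.5), an interval that overlapped that of the one-end peaks. Between close gene ends it was 16.2% (13.1 to 19.8) at 4 to 6 and 86.2% (81.0 to 90.2) at 8 to 12, and both intervals overlapped those of the one-end peaks. At 3 to 4 it was 3.54% (2.19 to 5.67) there and 8.59% (6.83 to 10.7) for one-end peaks, without overlap. Partners are part of the definition, so these shares describe how the peaks were chosen.

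**Figure D3:**
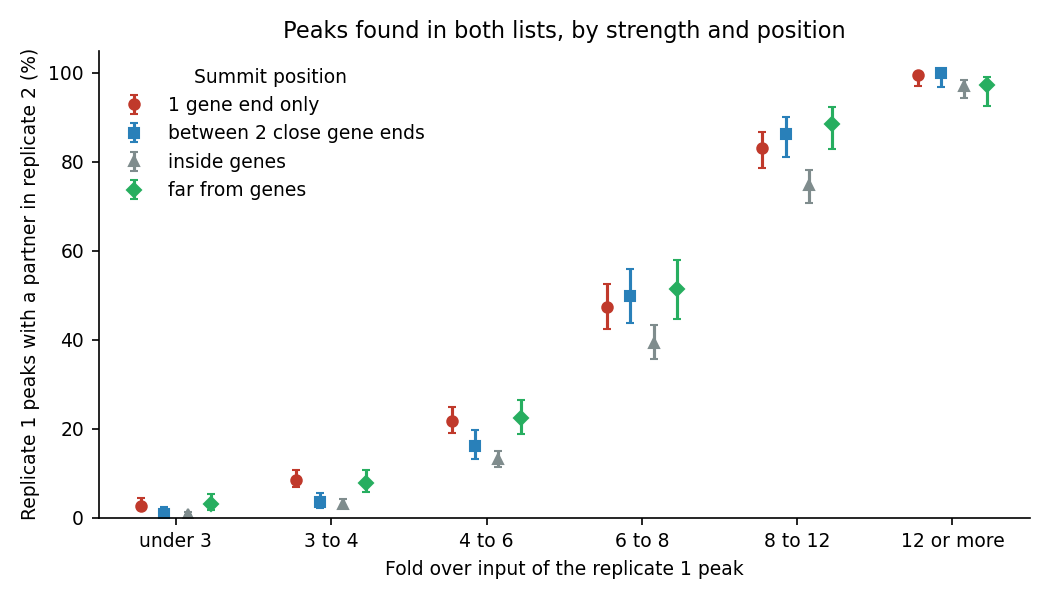
Share of replicate 1 peaks with a replicate 2 partner (y axis, %) in bins of replicate 1 fold (x axis) for peaks at 1 gene end only, between close gene ends, inside genes and far from genes, with 95% Wilson intervals. For one-end peaks the share was 2.74% under a fold of 3 and 99.5% at 12 or more.

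The strongest one-end peaks, ranked by the smaller fold of both replicates, stood beside genes of several functions. The first was 30 bp from GSTU20 (AT1G78370), a tau-class glutathione S-transferase gene, at chr1:29483709-29484570 of TAIR10, with 14.8-fold in replicate 1 (12.5 to 17.4) and 9.43-fold in replicate 2 (7.28 to 12.02). Its replicate 2 fold was the highest of the 886, while its replicate 1 fold ranked 78th. The peak 49 bp from AT5G01300 had 20.02-fold in replicate 1 (17.5 to 22.8) and 9.39-fold in replicate 2 (7.34 to 11.8). The peak 318 bp from AT2G35470 had 18.1-fold and 9.31-fold, the one 644 bp from AT1G68440 had 21.98-fold and 8.88-fold, and the one 157 bp from AT1G07870 had 19.1-fold and 8.74-fold, in replicates 1 and 2. The highest replicate 1 fold of all, 24.7 (21.4 to 28.4), was 73 bp from AT1G32410, at chr1:11693442-11694114, with 8.65 in replicate 2 (6.63 to 11.1). The peak 837 bp from PLPB (AT2G02710), which encodes a PAS/LOV domain protein, had 20.98-fold in replicate 1 and 8.19-fold in replicate 2.

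HSL1 (AT4G32010), a B3-domain protein of the VAL group that represses embryo genes after germination, had the second highest replicate 1 fold. Its peak, at chr4:15485660-15486711 and 612 bp from the gene, had 23.2-fold in replicate 1 (20.03 to 26.8) and 8.18-fold in replicate 2 (6.28 to 10.5). The summits of the 2 lists were 1 bp apart there. AT1G07210 had 2 peaks among the 10 strongest, 226 bp away with 21.2-fold and 982 bp away with 12.01-fold in replicate 1. Both met the same replicate 2 peak, of 8.51-fold, whose summit was 11 bp from that of the nearer peak. It was 767 bp from the summit of the farther peak, whose replicate 1 fold ranked 182nd. The place of the farther peak among the 10 thus rests on a replicate 2 value taken at the nearer one.

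Two-peak genes were few. There were 18 near genes with 2 one-end peaks and none with more, 9 with both peaks on the same side and 9 with a peak on each side. Besides AT1G07210 they included AHG1, CRF3, AIL5, MYBR1, AGO4 and TCP9. TCP9 (AT2G45680), a TCP transcription factor gene, had a peak on each side, with 15.1-fold and 9.40-fold in replicate 1 and 4.01-fold for both in replicate 2. AIL5 (AT5G57390), an AINTEGUMENTA-like factor of embryo and meristem growth, had a peak at 437 bp with 7.25-fold in replicate 1 and 5.99-fold in replicate 2, and one at 941 bp with 3.36-fold and 2.37-fold. At AGO4 (AT2G27040), an Argonaute protein of RNA-directed DNA methylation, both peaks met 1 replicate 2 peak, so that 4 of the 886 peaks shared a partner.

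Gene families and groups were counted as 31 lists with 691 genes, and 92 of these genes had a one-end peak. Over all 27444 nuclear protein-coding genes, next to such a gap or not, it was 868 (3.16%). The LEA and MYB lists hold only the genes named or numbered so in the gene table. A gene said to lead a list has its highest smaller fold of both replicates. The shares below can be read beside the 5.19% of all genes next to a gap that can hold one, and the folds beside medians of 8.10 and 3.35 over all 886 peaks. The families were chosen with earlier results of these data known, most are small, and no test was made on them. A family member without a one-end peak may have had a peak of another class.

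Of the regulators of maturation, 2 of 6 B3 and VAL genes next to such a gap had a one-end peak. ABI3 (AT3G24650), the B3 factor that relays abscisic acid to seed genes, had 12.4-fold in replicate 1 (10.1 to 15.1) and 4.13-fold in replicate 2 (2.87 to 5.78), at 622 bp. The other was HSL1, while FUS3 and LEC2 had none of this class. NF-Y subunits had 4 of 23. NF-YB2 (AT5G47640) had 19.9-fold in replicate 1 and 6.61-fold in replicate 2, NF-YA9 (AT3G20910) had 14.2-fold and 5.06-fold, and NF-YA1 (AT5G12840) had 10.1-fold and 3.89-fold, all within 150 bp of the gene.

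The remaining NF-Y gene was LEC1 itself (AT1G21970). Its peak, 33 bp from the gene, had a pileup of 207 in replicate 1 and 67 in replicate 2 but folds of only 5.15 (4.48 to 5.90) and 1.92 (1.49 to 2.43), since the local background was 40.4 and 35.5 there. These backgrounds stood far above the medians of 8.80 and 7.52. The plants carry the LEC1 promoter in the transgene as well as at the native locus, so the signal of the 2 copies cannot be told apart.

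Abscisic acid signalling was met at several steps. Among clade A PP2C genes, the negative regulators of the pathway, 3 of 8 had a one-end peak. AHG1 (AT5G51760), a phosphatase that acts in seeds, had 19.0-fold in replicate 1 (16.1 to 22.2) and 6.998-fold in replicate 2 (5.23 to 9.18) at 24 bp, and 12.5-fold and 5.49-fold at 630 bp on the same side. PP2CA (AT3G11410) had 17.6-fold in replicate 1 and 5.44-fold in replicate 2, and HAB1 (AT1G72770) had 2.27-fold (1.58 to 3.18) and 3.27-fold (2.19 to 4.70). AHG1 and PP2CA thus stood above the median in both lists, and HAB1 below it.

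Of group A bZIP genes, the transcription factors at the end of the pathway, 2 of 5 had one. ABF3 (AT4G34000) had 23.1-fold in replicate 1 (19.96 to 26.5) and 7.70-fold in replicate 2 (5.83 to 9.98) at 13 bp from the gene. DPBF2 (AT3G44460), the seed factor also called bZIP67, had 8.04-fold and 4.52-fold. Among the genes for ABI5 binding proteins, which restrain ABI5, 2 of 3 had one, AFP1 (AT1G69260) with 8.10-fold in replicate 1 and 3.96-fold in replicate 2, and AFP3 (AT3G29575) with 9.88-fold and 3.43-fold. Of the receptors 1 of 12 had one, PYL13 (AT4G18620), with 12.9-fold and 4.73-fold. Of the SnRK2 kinases next to a gap, 0 of 7 had one.

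Of 12 genes for synthesis and breakdown of the hormone 2 had one, both for 8'-hydroxylases that inactivate it. These were CYP707A4 (AT3G19270) with 7.80-fold in replicate 1 and 4.25-fold in replicate 2, and CYP707A1 (AT4G19230) with 6.48-fold and 2.504-fold.

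The list of seed storage protein genes had 4 of 9. It also holds genes under the symbols CRB and CRC, which had no one-end peak. Cruciferin genes stand in the list as CRA1, CRU2 and CRU3, so CRB and CRC may not be storage protein genes. The count of 9 may thus be too high. CRA1 (AT5G44120), a cruciferin gene, had 12.3-fold in replicate 1 (10.3 to 14.5) and 7.62-fold in replicate 2 (5.70 to 10.002) at 520 bp. CRU2 (AT1G03880), also a cruciferin gene, had 9.10-fold and 3.45-fold at 991 bp. Its replicate 1 peak had 4 summits and met 4 replicate 2 peaks. The summit of the replicate 2 peak used, that of highest pileup, lay too far from the gene for the one-end definition. The napin genes SESA2 and SESA3 (AT4G27160) had 12.96-fold and 5.10-fold in replicate 1, and 3.14-fold and 3.18-fold in replicate 2. SESA genes are closely related neighbours, so their values are uncertain where reads match more than 1 copy, as are those of the near-identical LHCB2 genes. Of the proteins that coat or attach to oil bodies, 2 of 8 had one, led by the steroleosin gene HSD6 (AT5G50770) with 14.4-fold and 6.52-fold. Of the LEA proteins of desiccation 4 of 10 had one, led by SAG21 (AT4G02380) with 5.40-fold and 4.40-fold. It led by the smaller fold only, since LEA18 and ERD14 (AT1G76180) had higher replicate 1 folds of 8.05 and 9.03.

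Sugar genes were also met. Trehalose phosphate phosphatases, which turn the sugar signal trehalose 6-phosphate into trehalose, had 5 of 10. TPPF (AT4G12430) had 12.8-fold in replicate 1 (10.5 to 15.5) and 5.69-fold in replicate 2 (4.101 to 7.69), TPPE (AT2G22190) had 10.6-fold and 5.42-fold, and TPPH (AT4G39770) had 17.1-fold and 4.83-fold. The others were TPPG with 16.6-fold and 4.61-fold and ATTPPA with 9.43-fold and 2.29-fold. All but ATTPPA were above the median of one-end peaks in both lists.

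Sucrose transporters had 3 of 9. SUC5 (AT1G71890), which acts in the endosperm, had 10.1-fold in replicate 1 and 4.84-fold in replicate 2, SUC1 (AT1G71880) had 7.97-fold and 4.25-fold, and SUT4 (AT1G09960) had 9.80-fold and 4.04-fold. Galactinol synthases, which start raffinose synthesis, had 2 of 6, GolS2 (AT1G56600) with 17.2-fold and 6.39-fold and GolS1 (AT2G47180) with 8.27-fold and 2.95-fold.

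**Figure D4:**
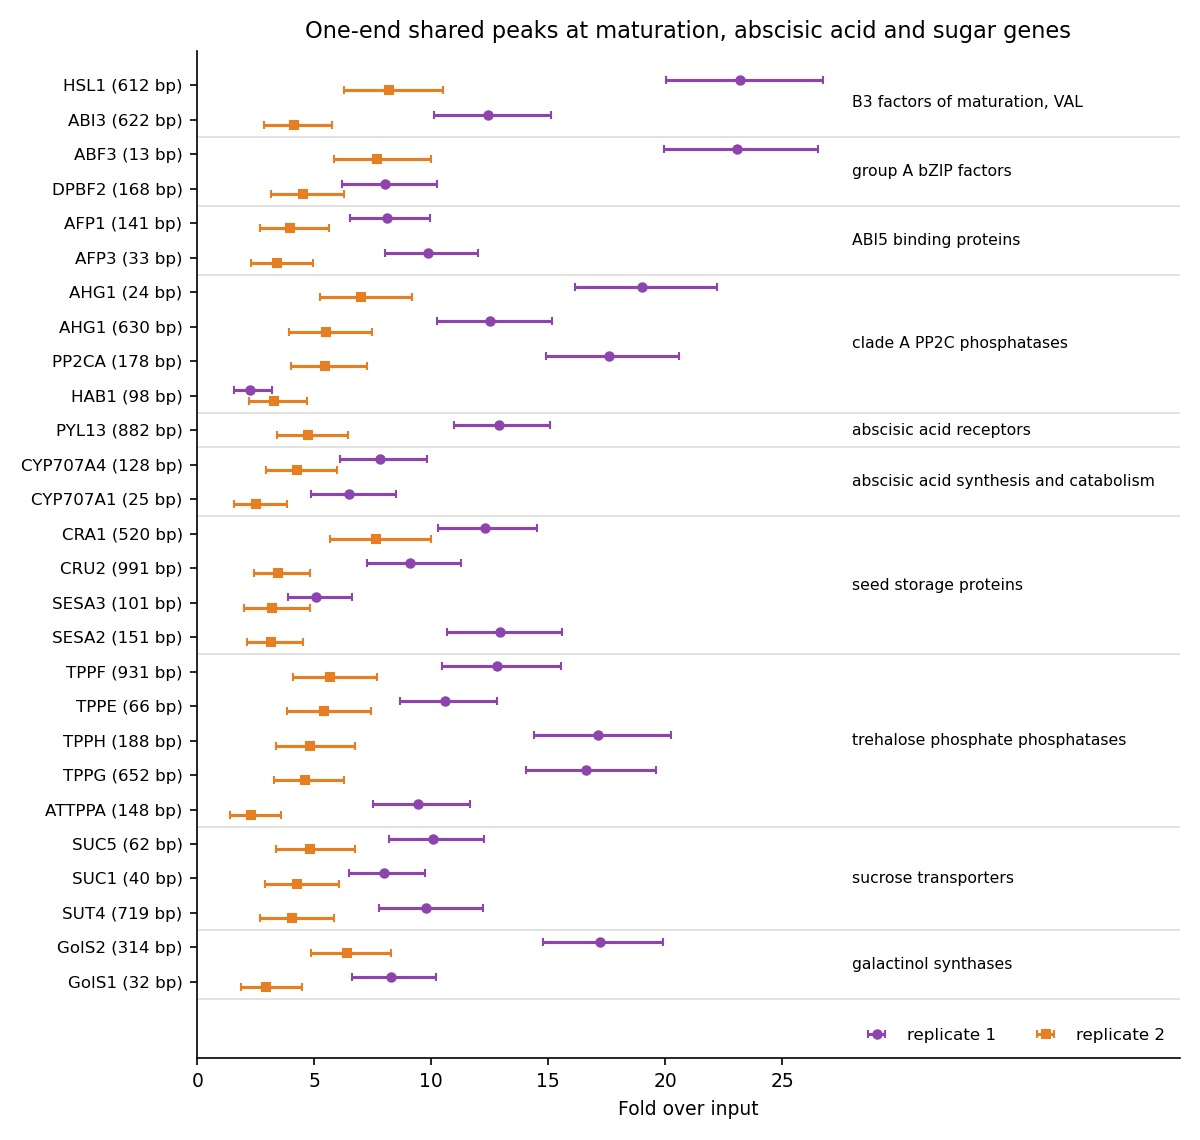
Fold over input (x axis) of one-end shared peaks at maturation, abscisic acid and sugar genes in replicate 1 and replicate 2, with the distance from the gene in parentheses and 95% Poisson intervals of the pileup. HSL1 and ABF3 reach 23.2 and 23.1 in replicate 1, and HAB1 is the gene shown whose replicate 2 value lies to the right of its replicate 1 value.

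Families of other programmes had such peaks as well. MADS-box genes of flowering had 3 of 13, SEP2 (AT3G02310) with 17.1-fold in replicate 1 and 5.19-fold in replicate 2, SEP3 (AT1G24260) with 17.1-fold and 4.56-fold, and AP1 (AT1G69120) with 6.82-fold and 3.66-fold. DNA demethylase genes had 2 of 4, DML2 (AT3G10010) with 15.97-fold and 7.57-fold and DME (AT5G04560), which acts in the central cell of the female gametophyte, with 3.36-fold and 2.26-fold. Jasmonate repressor genes had 2 of 11, led by JAZ6 (AT1G72450) with 15.6-fold and 6.64-fold. Cytokinin response factors had 3 of 10, led by CRF2 (AT4G23750) with 18.2-fold and 5.51-fold.

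Hormone and stress families gave mixed shares. Auxin receptors had 2 of 3, with TIR1 (AT3G62980) at 5.64-fold in replicate 1 and 2.38-fold in replicate 2 and AFB3 (AT1G12820) at 7.25-fold and 2.23-fold, both below the medians. Auxin response factors had 3 of 23, Aux/IAA genes 3 of 25, and gibberellin oxidase, receptor and DELLA genes 3 of 23. DREB and CBF genes of cold and drought response had 3 of 8. Tau-class glutathione S-transferases had 3 of 18, with GSTU22 (AT1G78340) at 17.5-fold and 6.12-fold beside GSTU20. AIL and PLT factors had 1 of 7 and Argonaute genes 1 of 9.

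The 3 largest families, all of transcription factors, had shares between 4.76% and 11.0%. MYB genes had 13 of 118 (11.0%), led by MYB12 (AT2G47460), a regulator of flavonol synthesis, with 14.5-fold in replicate 1 and 7.45-fold in replicate 2, while MYB74 (AT4G05100) had 14.9-fold and 5.76-fold. NAC genes had 8 of 86 (9.30%), led by NAC032 (AT1G77450) with 14.4-fold and 3.89-fold, and WRKY genes had 3 of 63 (4.76%). Of photosynthesis genes, photosystem subunits had 0 of 9 and antenna proteins 3 of 12, led by LHCB2.2 (AT2G05070) with 15.1-fold and 5.00-fold.

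**Figure D5:**
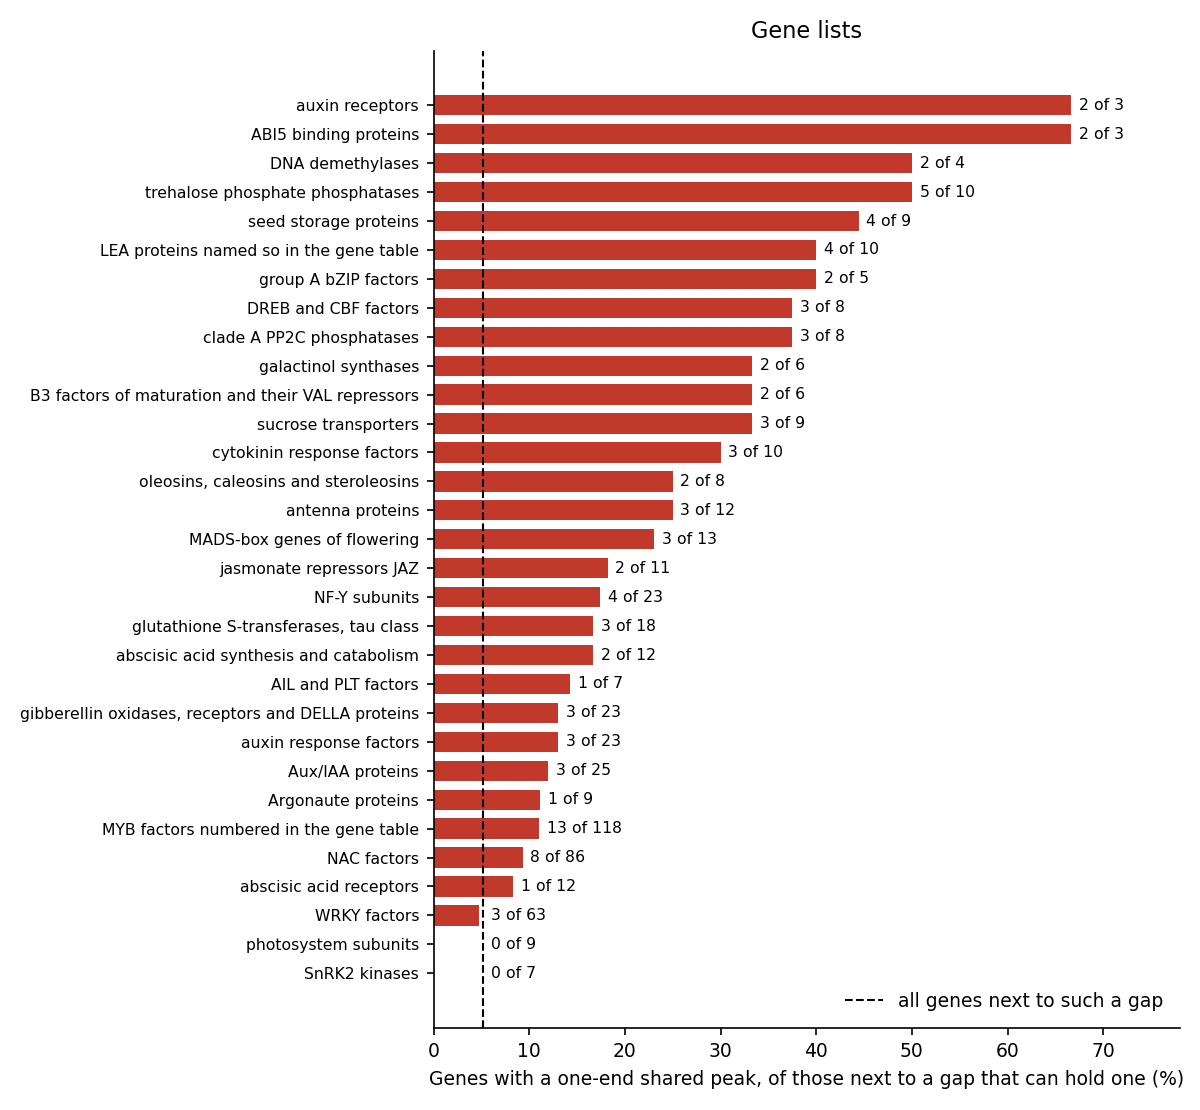
Share of genes with a one-end shared peak (x axis, %) among the members of each list that lie next to a gap able to hold one, with counts beside the bars and a dashed line at 5.19% for all such genes. Of the lists with 10 or more such genes, trehalose phosphate phosphatases have the highest share at 5 of 10, and WRKY factors are below the line at 3 of 63. The 9 genes counted for seed storage proteins may include some that are not storage protein genes.

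At a few genes the replicates were most unequal, and these were picked for that inequality. AT4G32272 had the highest ratio of replicate 2 to replicate 1, with 2.37-fold in replicate 1 (1.56 to 3.45) and 6.09-fold in replicate 2 (4.47 to 8.10). It was followed by AT1G79103 with 2.18-fold and 3.28-fold, and by BME3 (AT3G54810), a GATA factor that promotes germination, with 3.46-fold and 5.16-fold. At the other extreme AT3G63240 had 13.6-fold in replicate 1 (11.3 to 16.2) and 2.24-fold in replicate 2 (1.41 to 3.40). GLR1.3 (AT5G48410), a glutamate receptor-like channel gene, had 12.5-fold and 2.13-fold, AT3G24929 had 13.9-fold and 2.497-fold, and AT3G62260 had 15.9-fold and 3.07-fold.

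The peak of highest background was 264 bp from AT2G01023, near the start of chromosome 2, inside a gene of the miscellaneous RNA type. Its pileups were 248 in replicate 1 and 222 in replicate 2 over backgrounds of 191 and 129, and its folds of 1.30 and 1.73 were the lowest of the 886 in both lists. Only this peak and that of LEC1 had a replicate 1 background over 2 times the median.

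Summits reached up to both edges of the definition. The nearest were 2 bp from SPPL4 (AT1G01650), a signal peptide peptidase-like gene, and 3 bp from PUP5 (AT2G24220), a purine permease gene, and from UBP12 (AT5G06600), a ubiquitin-specific protease gene, with replicate 1 folds of 6.43, 7.70 and 8.64. The farthest was 996 bp from SPL (AT4G27330), also called NOZZLE, which is needed to form spore mother cells, with 17.5-fold in replicate 1 and 5.39-fold in replicate 2. RPT2 (AT2G30520), a signalling gene of phototropism, followed at 995 bp with 6.63-fold and 3.86-fold. Just outside that limit were shared peaks 1002 bp from AT1G29270 with 7.18-fold and 2.65-fold and 1003 bp from KNAT3 with 8.25-fold and 3.59-fold. On the open side, AT4G00305 and ACS4 were just inside with the next gene at 1006 bp, and GEK1 and XIB just outside with the next gene at 1000 and 999 bp.

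Genes of other types did not enter the definition. Of the 886 summits, 71 (8.01%) lay inside such a gene, among them 50 inside a long non-coding RNA gene, and 120 more (13.5%) lay within 1000 bp of one. The summits at JAZ6, SUT4, GLR1.3 and AT3G24929 were inside such genes. These 120 include 3 summits within 1000 bp of a microRNA gene. How much of the eligible sequence such genes cover was not computed, so these shares cannot be called high or low.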

How the data were processed

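Alignment with BWA 0.7.12 to TAIR10 and peak calling with MACS2 2.1.0.20150420 are named in the submitters' processing notes. Per the file headers, each ChIP library was called over its own input with a q threshold of 0.05, so replicates were not pooled. As a signal, the deposited pileup counts extended ChIP tags over a summit. The deposited fold enrichment is a ratio, and its −log10 p and −log10 q are the authors' own for each peak. These values describe, rank and filter peaks within a list. Dividing pileup + 1 by the fold gave back the local background, with its added 1.

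Rows of equal start and end were joined, with the summit of highest pileup. Gene names and neighbours came from a RefSeq table of TAIR10.1 with 27444 nuclear protein-coding genes and no strand. Its coordinates are not printed, and of 13 offsets tried between peaks and genes, an offset of 0 gave the most summits within 200 bp of gene ends (43.9%). Computation used Python 3.11.15, numpy 2.4.6, pandas 2.3.3 and scipy 1.17.1, and the scripts were tested on simulated data.

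The members and lists were chosen with earlier results of these data known. The design named 17 lists of an earlier analysis, which were not at hand, and 31 lists of families and groups took their place, with LEA and MYB genes limited to those named or numbered so in the gene table, and all 691 genes matched by identifier. Genes were named by rule: the 10 one-end peaks with the highest smaller fold, the 4 highest and 4 lowest ratios, the 3 nearest and 3 farthest summits, the 3 highest backgrounds, peaks at the limits, genes with the most peaks, and up to 3 per list. SESA2, TPPG, ATTPPA, FUS3 and LEC2 were named after their values were seen. The side of transcription and sequence elements were not analysed here.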

Additional observations from a re-analysis of the deposited data

How the results depend on the processing

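Of 66 values recomputed under 10 alternative settings, 45 stayed close to those reported and 21 moved. With 50% of both peaks required, there were 560 one-end peaks (33.2% of shared peaks) at 554 genes, with a median distance of 402.5 bp and median folds of 8.63 and 3.59. With a −log10 q of at least 10 in both lists, 191 peaks at 189 genes were left, with a median distance of 363 bp and folds of 13.2 and 5.21. All peaks of these 2 settings were among the 886. Limits of 500 bp gave 25.9% of shared peaks, a distance of 160 bp and a ratio of 0.418, and limits of 2000 bp gave 24.7% and 625 bp, so the distance follows the limit by construction. Of the 809 peaks under limits of 500 bp, 580 were among the 886. Under limits of 2000 bp, 520 of 771 were. Genes of every type gave 25.5%. Each list on its own gave between 1004 and 3027 one-end peaks, 21.8% to 29.9% of peaks, 974 to 2800 genes and median distances of 308 to 314 bp. Without replicate 2 the median fold of replicate 1 was 4.23, and without replicate 1 that of replicate 2 was 3.30. The ratio has no value with 1 list. Partner summits within 150 bp of each other, a setting chosen after seeing the data, left 833 peaks. The share of summits at gene starts and of promoters with CCAAT were not run, since strand and sequence were not used here. No paired analysis was possible because each replicate has 1 peak list, already called over its own input, and no test was made. ChIP depth was 4454133 and 4493099 tags, and its part in the lower number of replicate 2 peaks was not tested.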
